A study of Mus musculus with 24 samples.

Results

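The RNA of 29 genes of cholesterol synthesis and its control by the SREBP transcription factors was followed in mouse kidney, at 2 times of the day and in both sexes. The genes were taken by name: 20 enzymes of the pathway, 5 regulators and 4 proteins that move sterols. All 29 were found among the 56748 gene identifiers of the table, and all had a mean of at least 10 normalized counts over the 24 libraries, the level at which a gene was tested, so that they made up 29 of 17333 genes tested. Kidney RNA was sequenced after poly A selection from 4 groups of 6 libraries, namely females in the middle of the active period, females in the middle of the inactive period, and males at both times. The sources used here give no strain, age, clock hours or diet and do not say whether each library came from its own animal, so p-values measure the spread between these libraries, which may be partly technical.

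Cells make cholesterol from acetyl-CoA by way of mevalonate, farnesyl diphosphate, squalene and lanosterol. The SREBP proteins are made as membrane-bound precursors in the endoplasmic reticulum. When sterols are plentiful, the INSIG proteins hold the precursors and their escort SCAP there. When sterols fall, SCAP carries the precursors to the Golgi, where they are cut, and the freed factors switch on the genes of the pathway together. SREBP-2, made from Srebf2, acts mainly on cholesterol genes, and the 1c form of SREBP-1, made from Srebf1, acts mainly on fatty acid genes and is known to respond to feeding. In the kidney cholesterol is a main lipid of the tubule cells' membranes, and the proximal tubule takes up many proteins from the filtrate.

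Values are the authors' normalized counts. Recovered depth was 31.04 to 39.3 M reads per library. Normalized totals were 29.6 to 32.4 M in females and 35.97 to 39.5 M in males, so that sex differences depend on how libraries are scaled, as set out with them. A gene was called where the adjusted p of limma was under 0.05. The markers of the nephron fixed for this work were present in all libraries. The adrenal markers differed: Cyp11b1, Cyp11b2, Th and Dbh were at 0 in all 24. Star (132 to 252 normalized counts), Akr1b7 (39.0 to 121) and Mrap (5.53 to 45.2) were at 0 in none. Cyp11a1, Cyp21a1, Mc2r, Hsd3b1, Pnmt and Chga were at 0 in some libraries and above it in others. The part of adrenal tissue in these results was not tested. Fat markers varied between libraries: Adipoq, an adipocyte hormone, ranged from 4.42 to 522 normalized counts, with the highest value in female active library 4. In bulk RNA, fewer cells of a type and less RNA per cell cannot be told apart. Several libraries were low or high for many of these genes: female active library 1 was the lowest of its 6 in 13 of the 29, female inactive library 4 in 12 and male active library 1 in 11, while male active library 6 was the highest in 12 and male inactive library 4 in 11.

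Levels along the pathway spanned a wide range. Per kilobase of exon, the most abundant enzyme RNA was Hmgcs1, the cytosolic HMG-CoA synthase that feeds the mevalonate arm, with a mean of 3126 normalized counts per kilobase in active females and 6770.0 in active males. Cyp51, the lanosterol demethylase, followed with 2738 and 2889.5 per kilobase, and Acat2, the cytosolic thiolase that makes acetoacetyl-CoA, with 1053 and 1934. At the other end, Mvk, mevalonate kinase, had 68.4 and 99.4 per kilobase, the reductase gene Tm7sf2 84.2 and 86.6, and Lss, lanosterol synthase, 94.8 and 85.8. The length used joins all annotated exons of a gene, 10787 bases for Lss, and the order depends on it. By mean normalized count over the 24 libraries, Lss (870) stood above Dhcr7 (551), Tm7sf2 (375), Pmvk (347) and Mvk (216). Fdps, farnesyl diphosphate synthase, was lowest, with 8.40 and 3.34 per kilobase. Fdps has 6 near-identical pseudogenes in the reference annotation, with at least 90% identity over at least 300 bases, and shares 26.7% of its exon bases with the overlapping gene model Gm43738. Reads that match several copies may be missing from its count, so its level and its changes are uncertain.

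**Figure D1:**
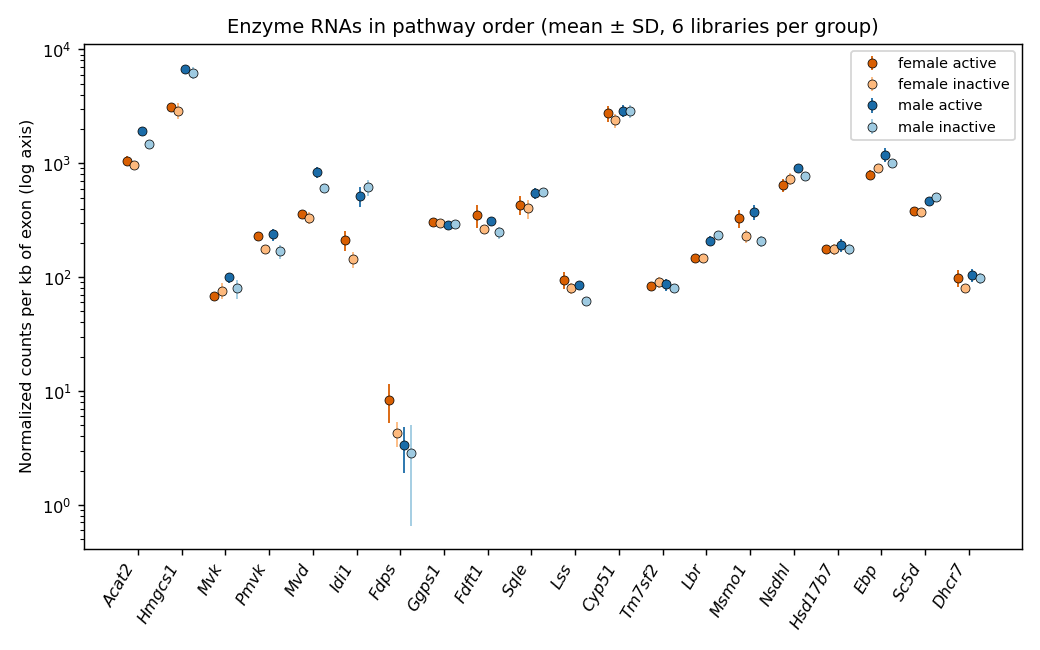
Normalized counts per kilobase of exon (log axis) for the 20 enzyme RNAs in the order of the pathway, as mean ± SD of 6 libraries for each of the 4 groups. Hmgcs1 and Cyp51 stand highest and Fdps lowest, and the gap between the sexes is widest for Idi1, Hmgcs1 and Mvd among the more abundant RNAs.

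In active kidneys a subset of the genes was higher than in inactive kidneys, in each sex, and the difference between the female and male counts was not tested. In females 5 of 29 genes rose, namely Srebf1, Idi1, Msmo1, Fdft1 and Pmvk, and Stard4 alone fell, where 7.97% of all genes tested rose and 6.98% fell. In males 10 of 29 rose, namely Srebf1, Srebf2, Insig1, Acat2, Mvk, Pmvk, Mvd, Lss, Msmo1 and Ebp, and 0 fell (by limma, edgeR or DESeq2; at an unadjusted p under 0.05 limma had 3 lower, Insig2, Lbr and Abca1), where 8.43% of all genes rose and 6.95% fell. Srebf1, Msmo1 and Pmvk rose in both sexes. The median log2 fold over the 29 genes was 0.11 in females and 0.13 in males, beside 0.00 and 0.01 over all genes tested. The largest of these rises was that of Msmo1 in males, 1.80-fold.

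**Figure D2:**
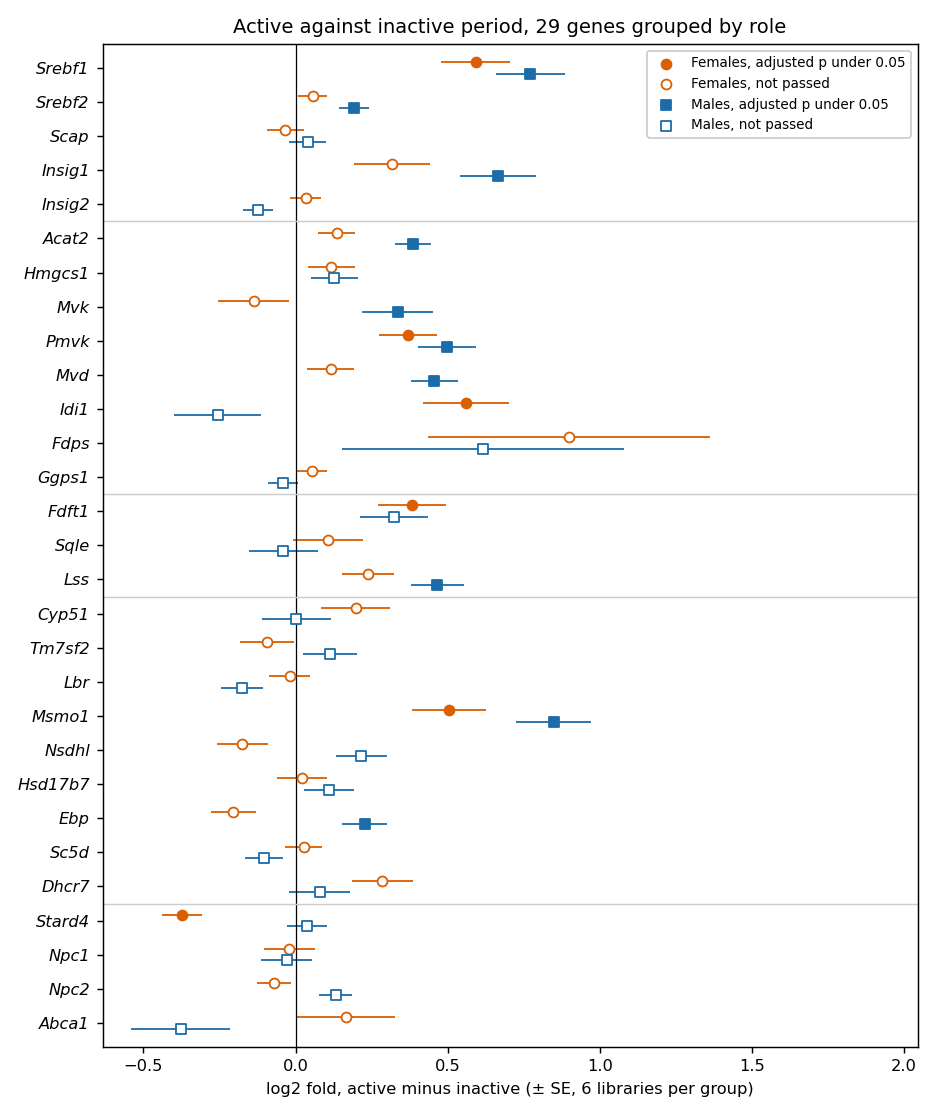
Log2 fold of the active over the inactive period (± SE) for each of the 29 genes in females (circles) and males (squares), in order of role from regulators at the top through the enzymes to sterol movement. Filled marks have an adjusted p under 0.05: 6 in females and 10 in males. Idi1, Ebp and Stard4 lie on different sides of 0 in the sexes or near it in 1 of them.

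Promoters were read for the genes on which these results turn: Srebf1 and Insig1, the regulators that rose most with the period in males, Mvd, which rose in males and was higher there in both periods, and Hmgcs1, which showed a sex gap and did not pass for the period. The sequences are from RefSeq on GRCm38.p6, 5′ to 3′ on the gene's own strand, from the 250 bases before a listed start, leaving out bases that GENCODE M21 places in an exon. For Srebf1, the most downstream of its 3 listed starts is shown. Capitals mark matches to a sterol regulatory element (TCACNCCAC), the CCAAT box bound by NF-Y (CCAAT, or ATTGG on the other strand) or an E-box (CACGTG). Searches covered both strands, and in these 4 stretches no match overlaps another.
Srebf1, chr11:60210472-60210721, minus strand: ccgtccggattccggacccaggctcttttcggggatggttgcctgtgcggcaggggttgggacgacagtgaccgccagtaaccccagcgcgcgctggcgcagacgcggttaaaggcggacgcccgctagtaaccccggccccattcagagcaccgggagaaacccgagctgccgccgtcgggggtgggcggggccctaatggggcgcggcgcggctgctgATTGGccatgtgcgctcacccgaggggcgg
Insig1, chr5:28071162-28071362, plus strand: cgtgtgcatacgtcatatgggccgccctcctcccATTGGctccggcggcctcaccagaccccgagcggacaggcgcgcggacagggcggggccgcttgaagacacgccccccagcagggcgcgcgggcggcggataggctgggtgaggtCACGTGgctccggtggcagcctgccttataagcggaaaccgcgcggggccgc
Mvd, chr8:122443423-122443672, minus strand: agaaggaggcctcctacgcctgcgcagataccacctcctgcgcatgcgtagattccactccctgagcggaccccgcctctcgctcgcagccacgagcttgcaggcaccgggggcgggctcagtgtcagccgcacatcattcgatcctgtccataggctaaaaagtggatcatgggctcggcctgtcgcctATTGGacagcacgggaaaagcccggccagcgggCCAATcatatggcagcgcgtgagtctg
Hmgcs1, chr13:119690101-119690350, plus strand: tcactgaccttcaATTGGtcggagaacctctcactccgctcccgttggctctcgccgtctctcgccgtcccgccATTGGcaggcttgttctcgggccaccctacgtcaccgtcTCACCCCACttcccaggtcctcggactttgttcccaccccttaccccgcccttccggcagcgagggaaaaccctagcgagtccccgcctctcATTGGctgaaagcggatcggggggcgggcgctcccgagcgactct

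Windows of 300 bases, from 250 before to 50 after a start, were listed for 24 of the 29 genes, and not for Stard4, Npc1, Sqle, Fdft1 or Fdps. Only the 250 bases before the start were searched, in the windows of these genes and in all others. A CCAAT box lay in at least 1 window of 21 of these 24 genes, beside 33.8% of all 32851 windows in the table. By window, 68.8% of the 32 windows of these genes held one. An E-box lay in windows of 6 genes, namely Abca1, Dhcr7, Hsd17b7, Insig1, Sc5d and Scap (18.8% of their windows, beside 6.02% of all). The sterol element in the exact letters searched was found for Hmgcs1 alone, with its first base at position -137 from the start, and in 1.05% of all windows. Genes with and without a period change both carried CCAAT boxes: Mvd and Lss had them, as did Hsd17b7 and Cyp51. A match is a description of the letters, and no binding was measured here.

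Among the regulators, the RNA of Srebf1 (ENSMUSG00000020538) was higher in the active period in both sexes. In females it ranged from 899 to 1445 (median 1177) in the active and from 664 to 908 (median 774) in the inactive libraries, which overlapped (log2 fold 0.59 ± 0.11, adjusted p = 5.34e-04). In males the ranges were 866 to 1124 (median 1022) in the active and 459 to 691 (median 623) in the inactive period, with every active library above every inactive one (log2 fold 0.77 ± 0.11, adjusted p = 4.61e-05). Only female active library 1 reached the level of the highest inactive females. The deposited counts are per gene and do not part the 1a and 1c forms of Srebf1.

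Srebf2 (ENSMUSG00000022463) moved little. In males its mean was 2272 ± 111 in the active and 1989 ± 119 in the inactive period, a small rise that passed (log2 fold 0.19 ± 0.05, adjusted p = 0.00819). In females the log2 fold was 0.06 ± 0.05 (95% interval -0.05 to 0.16) and did not pass. Insig1 (ENSMUSG00000045294), the retention protein whose own gene is a well-known SREBP target, rose in males, from a median of 1699.8 (range 1379 to 1789.8) to a median of 2516 (range 2343 to 2872), with no overlap (log2 fold 0.67 ± 0.13, adjusted p = 0.00104). In females its libraries overlapped widely, at 1251 to 2259 (median 1920.3) in the active and 1098 to 1812 (median 1515) in the inactive period (log2 fold 0.32 ± 0.13, adjusted p = 0.0946). The lowest active female, at 1251, was again library 1, and without it Insig1 is called in females too. Its relative Insig2 and the escort Scap did not pass in either sex. The log2 folds of Insig2 were 0.03 ± 0.05 (95% interval -0.07 to 0.14) in females and -0.12 ± 0.05 (95% interval -0.23 to -0.02) in males, and those of Scap were -0.03 ± 0.06 (95% interval -0.16 to 0.09) and 0.04 ± 0.06 (95% interval -0.09 to 0.17). Under upper quartile or equal totals scaling Insig2 was called lower in active males.

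In the mevalonate arm, which turns acetyl-CoA into the 5-carbon building blocks, 4 of 8 genes rose in males and 2 of 8 in females. Pmvk (ENSMUSG00000027952), phosphomevalonate kinase, rose in both: in females from a median of 304 (range 269 to 338) to a median of 402 (range 329 to 424) (log2 fold 0.37 ± 0.10, adjusted p = 0.00725), and in males from a median of 284 (range 248 to 339.9) to a median of 389.6 (range 360.2 to 474) (log2 fold 0.50 ± 0.10, adjusted p = 7.51e-04). The male groups did not overlap, and the female groups did. Mvd (ENSMUSG00000006517), the decarboxylase of the next step, rose in males from a median of 1158 (range 997 to 1214) to a median of 1611 (range 1289 to 1714), with the groups apart (log2 fold 0.46 ± 0.08, adjusted p = 1.69e-04). In females Mvd was at 602 to 755 (median 666) and 569 to 760.3 (median 585) and did not pass (log2 fold 0.12 ± 0.08, adjusted p = 0.356).

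Acat2 (ENSMUSG00000023832) rose in males from a median of 3709 (range 3543 to 4029.7) to a median of 4882 (range 4396 to 5543), again with no overlap (log2 fold 0.39 ± 0.06, adjusted p = 5.62e-05), and had a log2 fold of 0.13 ± 0.06 (95% interval 0.01 to 0.26) in females, which did not pass. Acat2 shares 97.7% identity over 1477 bases with its copy Acat3, which had a mean of 304 normalized counts. It also shares 98.7% identity over 445 bases with Tcp1, which had a mean of 5501. Part of the Acat2 reads may therefore be missing or misplaced. Mvk passed narrowly in males, at a median of 280.3 (range 227 to 288) in the active and a median of 201 (range 177 to 283) in the inactive period (log2 fold 0.34 ± 0.12, adjusted p = 0.0491). Its groups overlapped, and it lost its call when any of 16 of the 24 libraries was left out. In females the log2 fold of Mvk was -0.14 ± 0.12 (95% interval -0.38 to 0.11). Hmgcs1, the most abundant RNA of the arm and the gene whose window held the sterol element, did not pass in either sex: its log2 folds were 0.12 ± 0.08 (95% interval -0.04 to 0.28) in females and 0.13 ± 0.08 (95% interval -0.03 to 0.29) in males. Ggps1, which makes the geranylgeranyl group for protein anchors, had log2 folds of 0.05 ± 0.05 (95% interval -0.05 to 0.16) and -0.04 ± 0.05 (95% interval -0.15 to 0.06). Fdps had the widest errors, with log2 folds of 0.90 ± 0.46 (95% interval -0.07 to 1.87) and 0.62 ± 0.46 (95% interval -0.35 to 1.58), and did not pass.

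On the way from farnesyl diphosphate to lanosterol, Fdft1, squalene synthase, rose in females and Lss, lanosterol synthase, in males, while Sqle, squalene epoxidase, passed in neither. Fdft1 (ENSMUSG00000021273) ranged from 1032 to 1941 (median 1416) in active and from 993 to 1248 (median 1118) in inactive females (log2 fold 0.38 ± 0.11, adjusted p = 0.0199). Its call is lost without female active library 3 or 4, and library 4 is both its highest value and the library with the most Adipoq. In males it missed the threshold narrowly (log2 fold 0.32 ± 0.11, adjusted p = 0.0501). Fdft1 shares 18.3% of its exon bases with Ctsb, a far more abundant gene on the opposite strand, and no source used here gives the strand setting of the counting.

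Lss (ENSMUSG00000033105) in males ranged from 885 to 985 (median 924) in the active and from 602 to 718 (median 693) in the inactive period, with the groups apart (log2 fold 0.47 ± 0.09, adjusted p = 5.22e-04). In females it was at 765 to 1244 (median 1002) and 734 to 998 (median 866) and did not pass (log2 fold 0.24 ± 0.09, adjusted p = 0.0616). The log2 folds of Sqle were 0.11 ± 0.11 (95% interval -0.13 to 0.34) in females and -0.04 ± 0.11 (95% interval -0.28 to 0.20) in males, with both intervals reaching across 0.

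Between lanosterol and cholesterol the period moved few of the 9 enzymes, 1 in females and 2 in males, but in males it moved Msmo1 (ENSMUSG00000031604) more than any other of the 10 genes that passed. Msmo1 encodes the methylsterol oxidase that starts the removal of methyl groups from the sterol ring. It ranged from 1973 to 2879 (median 2216) in active and from 1077 to 1403 (median 1293) in inactive males, with the groups far apart (log2 fold 0.85 ± 0.12, adjusted p = 6.50e-05). In females the ranges were 1404 to 2469 (median 2049) and 1069 to 1587 (median 1457) (log2 fold 0.51 ± 0.12, adjusted p = 0.00575), overlapping only through female active library 1 at 1404.

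Msmo1 works in 1 complex with Nsdhl and Hsd17b7, and neither of these passed. The log2 folds of Nsdhl were -0.17 ± 0.08 (95% interval -0.35 to -0.0020) in females and 0.22 ± 0.08 (95% interval 0.04 to 0.39) in males, and those of Hsd17b7 were 0.02 ± 0.08 (95% interval -0.15 to 0.19) and 0.11 ± 0.08 (95% interval -0.06 to 0.28). Ebp, the sterol isomerase, rose in males (log2 fold 0.23 ± 0.07, adjusted p = 0.0356), and had a log2 fold of -0.20 ± 0.07 (95% interval -0.36 to -0.05) in females, which did not pass as deposited and was called lower under upper quartile or equal totals scaling. The male call of Ebp is lost when any of 7 libraries is left out. Cyp51, among the most abundant RNAs, had log2 folds of 0.20 ± 0.11 (95% interval -0.04 to 0.43) in females and 0.0031 ± 0.11 (95% interval -0.23 to 0.24) in males. Dhcr7, the reductase of the final step, came near the threshold in females (log2 fold 0.29 ± 0.10, adjusted p = 0.0551) and not in males (log2 fold 0.08 ± 0.10, adjusted p = 0.645). The sterol reductases Tm7sf2 (log2 fold -0.09 ± 0.09 in females and 0.11 ± 0.09 in males) and Lbr (-0.02 ± 0.07 and -0.18 ± 0.07) and the desaturase Sc5d (0.03 ± 0.06 and -0.10 ± 0.06) did not pass, other than Lbr, lower in males under upper quartile scaling.

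Of the 4 genes of sterol movement, Stard4 (ENSMUSG00000024378), a carrier of cholesterol between membranes, was the 1 that changed with the period, and it fell. Every active female library, at 3273 to 3567 (median 3507), lay below every inactive female library, at 4027 to 4996 (median 4383) (log2 fold -0.37 ± 0.07, adjusted p = 1.48e-04). In males the ranges were 2917 to 3699 (median 3178) and 2675 to 3398 (median 3211) and overlapped (log2 fold 0.04 ± 0.07, adjusted p = 0.751). Npc1 and Npc2, which release cholesterol from lysosomes, did not pass, with log2 folds of -0.02 ± 0.08 and -0.07 ± 0.05 in females and -0.03 ± 0.08 and 0.13 ± 0.05 in males. Abca1, the exporter that loads cholesterol onto apolipoprotein, had wide errors, with log2 folds of 0.17 ± 0.16 (95% interval -0.17 to 0.50) in females and -0.38 ± 0.16 (95% interval -0.72 to -0.04) in males.

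**Figure D3:**
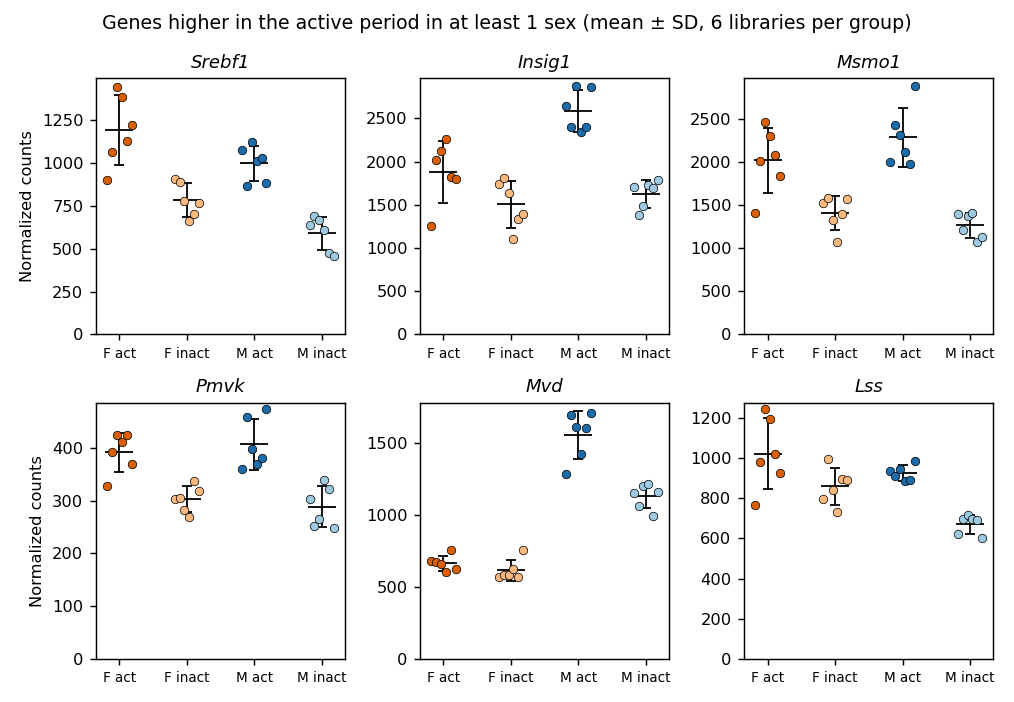
Normalized counts in each library (points) with mean ± SD (bars) for Srebf1, Insig1, Msmo1, Pmvk, Mvd and Lss, in active and inactive females and males, with axes that start at 0. In males the active libraries lie above all inactive ones for each of the 6 genes, and in females the groups overlap for each.

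Of the 29 genes, 7 were higher in active males with no overlap between the groups (2.28% of all genes tested were). All 7 were among the 10 genes that rose there. In active females 0 of the 29 were higher with no overlap, where 4.40% of all genes were. Stard4 was lower in active females with no overlap, as were 3.43% of all genes, and no gene of the 29 was so in males, where 2.01% were. Female active library 1 bears on these counts. Without it 8 genes rose in females, the further ones being Insig1, Lss and Dhcr7. Without female active library 4, with the highest Adipoq, 4 rose. The 7 adipocyte markers summed to 1759 to 6549 normalized counts in active and 2324 to 6017 in inactive females. In males they summed to 1482 to 4893 in the active and 1801 to 3679 in the inactive period. Lep was at 0 in 8 of the 24 libraries. The sums reflect Fabp4, at 1429 to 4974 over the 24 libraries, far more than Adipoq and the other fat markers. The 5 blood markers summed to 5524 to 7251 in active and 2306 to 5242 in inactive males, without overlap, and to 2627 to 8294 and 1327 to 6883 in females. Mitochondrially encoded RNA was 12.1 to 15.2% of active and 14.6 to 16.6% of inactive male libraries. The part of fat, blood and mitochondrial RNA in these results was not tested.

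For 3 of the 29 genes the period change itself differed between males and females: Stard4 and Ebp changed more upward in males (1.41% of all genes tested did so), and Idi1 changed more downward in males (1.30%). For Stard4 the difference between the male and the female log2 fold was 0.41 ± 0.09 (adjusted p = 0.0149), a fall in females beside a log2 fold of 0.04 ± 0.07 in males. For Ebp (ENSMUSG00000031168) it was 0.43 ± 0.10 (adjusted p = 0.0224). Active females had 1585 to 1971 (median 1912) normalized counts of Ebp and inactive females 1811 to 2309 (median 2096), against 2217 to 3274 (median 2694) and 2199 to 2487 (median 2358) in males. The Ebp groups of both sexes overlapped.

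Idi1 (ENSMUSG00000058258), the isomerase that makes dimethylallyl diphosphate, had the largest difference, -0.82 ± 0.20 (adjusted p = 0.0293). In females it rose from a median of 506 (range 402 to 599.9) to a median of 747 (range 564 to 950.5) (log2 fold 0.56 ± 0.14, adjusted p = 0.00862). In males it stood at 1844 to 2712 (median 2063) in the inactive and at 1490.0 to 2276 (median 1692) in the active period (log2 fold -0.26 ± 0.14, adjusted p = 0.231), which did not pass. The call of the difference is lost without any 1 of 6 libraries (female active 4, female inactive 3, male active 2 and 5, male inactive 3 and 6), with a highest adjusted p of 0.0584. Female active library 4, with the most Adipoq, is also the highest active female in Idi1. Idi1 matches the pseudogene Gm13502 with 100% identity over 684 bases, so some of its reads may be missing or misplaced.

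For genes that rose in males only, such as Insig1 (difference 0.35 ± 0.18, adjusted p = 0.291), Lss (0.23 ± 0.12, adjusted p = 0.316), Mvd (0.34 ± 0.11, adjusted p = 0.0808) and Acat2 (0.25 ± 0.08, adjusted p = 0.0940), the difference between the sexes was not significant. Their rises are therefore not shown to be particular to males. Without male active library 1, the lowest active male in 11 of the 29 genes, 6 genes passed upward: Stard4, Ebp, Acat2, Mvd, Nsdhl and Npc2.

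**Figure D4:**
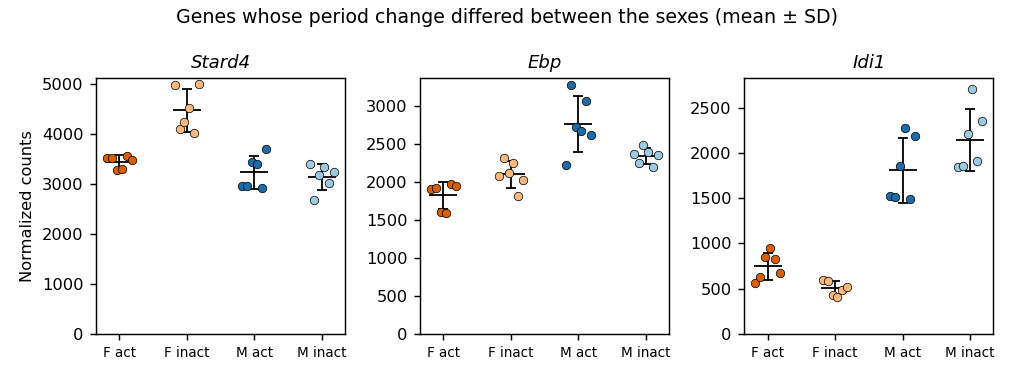
Normalized counts in each library (points) with mean ± SD (bars) for Stard4, Ebp and Idi1 in the 4 groups, with axes that start at 0. Inactive females stand above the other 3 groups in Stard4, and both male groups stand above both female groups in Idi1.

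Males and females differed in more of these genes than the periods did, as was so over all genes tested. In the active period 13 of 29 genes were higher in males and 3 lower (30.1% and 30.5% of all genes tested). In the inactive period 11 were higher and 4 lower (27.9% and 27.8%). Acat2, Hmgcs1, Mvd, Idi1, Sqle, Lbr, Sc5d and Scap were higher in males in both periods. These counts depend on the scaling: with libraries set to equal totals, the median log2 fold of all genes moved from -0.05 to -0.32 in the active and from -0.04 to -0.32 in the inactive period, and the counts became 8 higher and 13 lower (15.2% and 50.9% of all genes tested), and 6 higher and 15 lower (11.8% and 52.2%). Under that scaling 23.0% and 18.5% of all called genes were higher in males, against 49.7% and 50.1% as deposited. Relative to the median of all genes, 22 of the 29 lay above it in the active and 19 in the inactive period under both scalings. Rescaling shifts all genes together, so this count was nearly fixed in advance and is no test of the scaling.

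Hmgcs1, Mvd, Idi1, Acat2, Scap and Lbr were higher in males in both periods under each of the 4 scalings tried. Idi1 differed most: in the inactive period the females ranged from 402 to 599.9 (median 506) and the males from 1844 to 2712 (median 2063), a 4.25-fold gap (log2 fold 2.09 ± 0.14, adjusted p = 1.70e-11), and in the active period the log2 fold was 1.27 ± 0.14 (adjusted p = 5.49e-08). Hmgcs1 (ENSMUSG00000093930) was at 13168 to 15517 (median 14333) in active females and at 30014 to 32999 (median 30693) in active males (log2 fold 1.12 ± 0.08, adjusted p = 6.42e-13). In the inactive period its ranges were 11858 to 17389 (median 12526) and 25206 to 34103 (median 26923) (log2 fold 1.11 ± 0.08, adjusted p = 1.06e-12). Every male library of either period lay above every female library of either period.

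Mvd had a median of 666 (range 602 to 755) in active females and a median of 1611 (range 1289 to 1714) in active males (log2 fold 1.22 ± 0.08, adjusted p = 2.50e-14), with a log2 fold of 0.88 ± 0.08 (adjusted p = 5.00e-11) in the inactive period. For Acat2 the log2 folds were 0.88 ± 0.06 (adjusted p = 1.37e-13) and 0.63 ± 0.06 (adjusted p = 2.91e-10). Scap (ENSMUSG00000032485), the escort, was at 1032 ± 56.1 and 1058 ± 82.5 in active and inactive females and at 1533 ± 145 and 1487 ± 66.0 in males. Its log2 folds were 0.57 ± 0.06 (adjusted p = 2.65e-09) and 0.49 ± 0.06 (adjusted p = 5.14e-08). Lbr (ENSMUSG00000004880), a sterol reductase that also anchors chromatin at the nuclear envelope, was at 697 ± 52.9 and 706 ± 38.2 in females and at 990.4 ± 105 and 1117 ± 81.0 in males (log2 folds 0.50 ± 0.07 and 0.66 ± 0.07). The groups did not overlap for any of these 6 genes in either period. Of the 29 genes, 11 were higher and 2 lower in active males with no overlap (20.2% and 16.1% of all genes tested), and 9 and 2 in inactive males (18.6% and 13.7%).

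**Figure D5:**
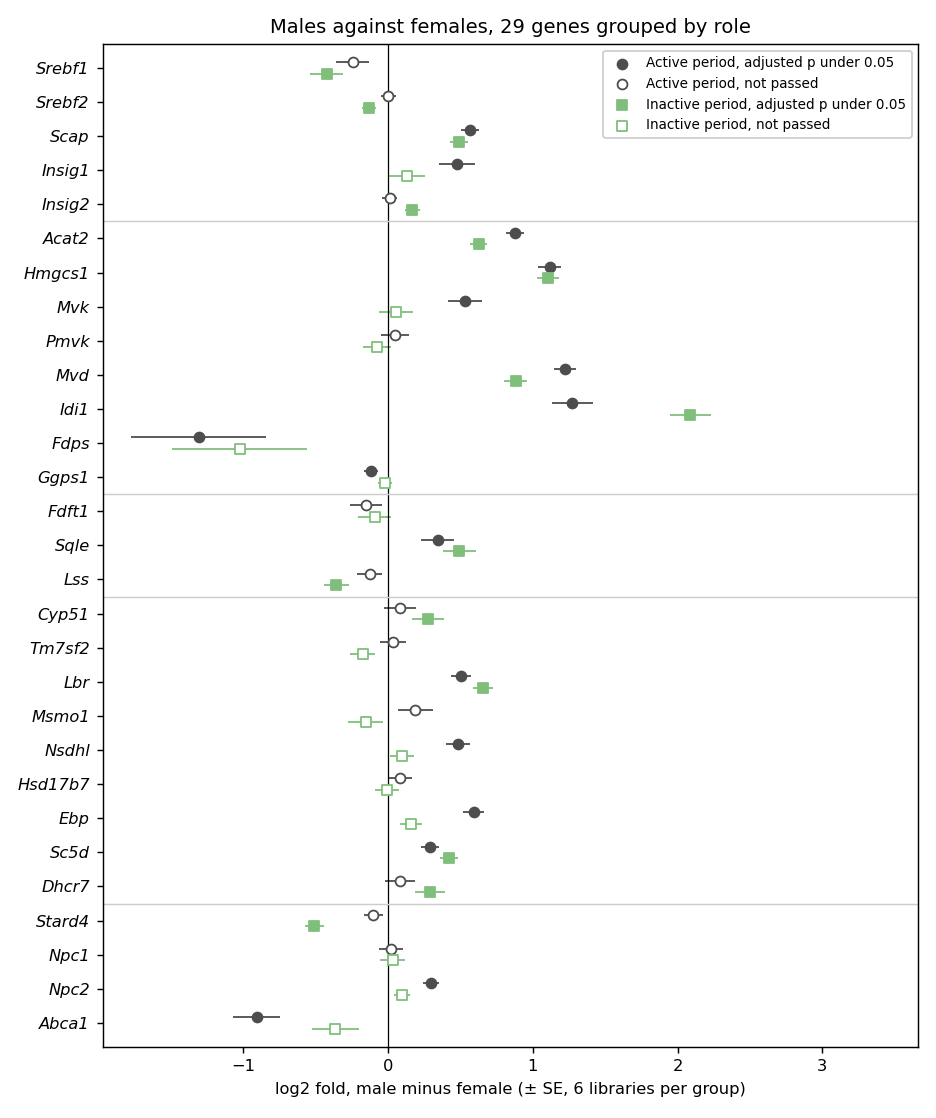
Log2 fold of males over females (± SE) for each of the 29 genes in the active (circles) and inactive (squares) period, on the scale of the deposited values, in the same order of roles. Filled marks have an adjusted p under 0.05. Idi1, Hmgcs1, Mvd and Acat2 lie farthest to the right, and Stard4, Srebf1 and Lss were lower in inactive males; under equal totals all values move left by about 0.27 to 0.28.

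Sqle (log2 fold 0.35 ± 0.11 in the active and 0.49 ± 0.11 in the inactive period) and Sc5d (0.29 ± 0.06 and 0.42 ± 0.06) were higher in males in both periods as deposited, and neither passed under equal totals. In the active period alone Ebp (log2 fold 0.59 ± 0.07, adjusted p = 5.20e-08), Nsdhl (log2 fold 0.49 ± 0.08, adjusted p = 1.00e-05), Mvk (log2 fold 0.53 ± 0.12, adjusted p = 2.57e-04), Insig1 (log2 fold 0.48 ± 0.13, adjusted p = 0.00205) and Npc2 (log2 fold 0.30 ± 0.05, adjusted p = 2.47e-05) passed upward. Of these Ebp and Nsdhl kept the call under equal totals. In the inactive period alone Insig2 (log2 fold 0.17 ± 0.05), Dhcr7 (0.29 ± 0.10) and Cyp51 (0.28 ± 0.11) passed upward. Under equal totals none of these 3 passed, and the folds of Insig2 and Cyp51 turned to -0.11 and -0.0017.

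The genes lower in males were others. Abca1 (ENSMUSG00000015243) in active males, at 686 to 1406 (median 867), lay wholly below active females, at 1470.4 to 2152 (median 1586) (log2 fold -0.91 ± 0.16, adjusted p = 5.29e-05). In the inactive period Abca1 was at 1070 to 1262 (median 1206) in males and 1164 to 1949 (median 1494) in females, and did not pass as deposited. It was called lower in inactive males in 6 other settings, upper quartile and equal totals scaling among them. Stard4 in inactive males lay wholly below inactive females (log2 fold -0.51 ± 0.07, adjusted p = 1.06e-07). That contrast shares its inactive females with the period change of Stard4 given above. Srebf1 (log2 fold -0.42 ± 0.11, adjusted p = 0.00255), Lss (log2 fold -0.35 ± 0.09, adjusted p = 9.16e-04) and Srebf2 (log2 fold -0.13 ± 0.05, adjusted p = 0.0235) were lower in inactive males. In the active period the log2 fold of Srebf1 was -0.24 ± 0.11 (95% interval -0.48 to -0.01) and that of Lss -0.13 ± 0.09 (95% interval -0.31 to 0.06), and neither passed. Without female active library 1, Srebf1, Lss and Fdft1 are called lower in active males as well, and Ggps1 no longer is, so that the count is 5 in place of 3. Fdps (log2 fold -1.31 ± 0.46, adjusted p = 0.0161) and Ggps1 (log2 fold -0.11 ± 0.05, adjusted p = 0.0481) passed downward in the active period, the second only narrowly. Ggps1 lost its call without any of 18 of the 24 libraries.

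The summed markers of the last segment of the proximal tubule differed by sex. The sum of its 4 markers was 11468 to 17618 normalized counts in active and 16125 to 23532 in inactive females, and 102575 to 141635 and 110583 to 139447 in males. None of the 4 was at 0 in any library. Slc7a13, a transporter of that segment, was at 15.6 to 86.2 (median 58.5) in active females and 43297 to 53841 (median 48672) in active males. Over all 24 libraries Acy3 ranged from 6194 to 81437, but Slc22a7 only from 2319 to 7507 and Slc5a1 from 2068 to 3484. The sum therefore reflects Slc7a13 and Acy3 far more than the other markers of the segment. Sums of the 3 podocyte markers were 13941 to 15144 in active females and 7370 to 8757 in active males, and those of 3 distal convoluted tubule markers 57054 to 70051 and 36615 to 40701. The part of these cell types in the sex differences of the cholesterol genes was not tested. Hsd17b7, Tm7sf2 and Npc1 were called in none of the 5 contrasts as deposited, but under equal totals all 3 were called lower in males in both periods, and Tm7sf2 also under upper quartile scaling in the inactive period.

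As a summary per library, the log2 values of the 20 enzymes were centred on each gene's mean over all libraries and averaged. This mean was -0.23 to 0.03 in active females, -0.34 to -0.12 in inactive females, 0.17 to 0.38 in active males and -0.15 to 0.14 in inactive males. Fdps, with 0.97 to 58.4 normalized counts over the 24 libraries, weighs on it. Without Fdps, a choice made after its values were seen, the ranges were -0.27 to -0.04, -0.35 to -0.14, 0.16 to 0.41 and 0.01 to 0.23. All active males then lay above all females, as did all inactive males, on the deposited scale. With Fdps, inactive males overlapped active females. The summary was not taken under equal totals, which moved the median log2 fold of all genes by -0.27 in the active and -0.28 in the inactive period. As deposited, 16 of the 20 enzymes had a positive male over female log2 fold in the active period and 12 in the inactive period.

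Genes around the pathway were followed in 5 further lists. Their counts stand beside the shares of all genes tested, which for the period were 7.97% higher and 6.98% lower in females and 8.43% and 6.95% in males. By sex these shares were 30.1% and 30.5% in the active and 27.9% and 27.8% in the inactive period, and under equal totals 15.2% and 50.9%, and 11.8% and 52.2%. In fatty acid synthesis, which SREBP-1 also serves, 4 of 19 genes rose in active females, above the 7.97% of all genes. There 2 fell, beside 6.98%. In active males 2 rose and 1 fell, near the shares of all genes. The median log2 fold of the list was 0.21 in females and 0.10 in males. Scd2, a desaturase that makes monounsaturated fatty acids, rose in both sexes, with 7172 to 11842 (median 8411) in active and 3868 to 6568 (median 5295) in inactive females (log2 fold 0.81 ± 0.13, adjusted p = 1.24e-04), and a log2 fold of 0.75 ± 0.13 in males (adjusted p = 4.94e-04). Acsl3, an acyl-CoA synthetase, rose in females (log2 fold 0.43 ± 0.08, adjusted p = 2.21e-04). Gpam, which starts glycerolipid synthesis, fell in males (log2 fold -0.37 ± 0.07, adjusted p = 5.78e-04) and in females (log2 fold -0.28 ± 0.07, adjusted p = 0.00526). By sex the list split, with 7 higher and 6 lower in males in each period, and 5 higher and 8 lower in the active and 6 and 7 in the inactive period under equal totals. Me1, malic enzyme (log2 fold 1.67 ± 0.07 in the inactive period), and Acss2, acetyl-CoA synthetase (1.38 ± 0.06 in the active period), were higher in males, and Elovl6, a fatty acid elongase (-1.88 ± 0.08 in the inactive period), was lower, under equal totals too.

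Among 14 genes of SREBP processing and sterol-regulated protein breakdown, 2 rose and 2 fell with the active period in each sex (over all genes 7.97% and 6.98% in females, 8.43% and 6.95% in males), and 1 rose and 2 fell in each under equal totals. Spring1, which licenses the protease that cuts the SREBPs, rose in females (log2 fold 0.30 ± 0.08, adjusted p = 0.00680) and in males (log2 fold 0.29 ± 0.08, adjusted p = 0.0107). Erlin2, a membrane scaffold for protein breakdown in the endoplasmic reticulum, fell in males (log2 fold -0.19 ± 0.05, adjusted p = 0.00500) and in females (log2 fold -0.14 ± 0.05, adjusted p = 0.0264). Prkaa2, a catalytic subunit of the energy sensor AMPK, fell in males (log2 fold -0.19 ± 0.05, adjusted p = 0.0199). The median log2 fold was 0.01 in females and 0.00033 in males. By sex 5 of 14 were higher and 1 lower in males in each period (over all genes 30.1% and 30.5% in the active, 27.9% and 27.8% in the inactive period), but under equal totals 2 were higher and 8 lower in the active and 2 and 9 in the inactive period. The ubiquitin ligase gene Rnf145 was higher in active males (log2 fold 0.60 ± 0.05, adjusted p = 5.44e-11) and kept the call under equal totals.

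Of 12 tested genes of oxysterol handling and the LXR receptors, which answer to surplus sterol, 1 rose in active females and 1 fell in active males, near the shares of all genes (7.97% and 6.95%). Under upper quartile or equal totals scaling 0 rose and 1 fell in females (Nr1h2, named after its values were seen), and 3 fell in males. The median log2 fold was 0.06 in females and 0.01 in males. The genes called were Cyp27a1, a sterol hydroxylase, in females (log2 fold 0.22 ± 0.07, adjusted p = 0.0391, and adjusted p = 0.0816 under equal totals) and Mylip, a ubiquitin ligase for lipoprotein receptors, in males (log2 fold -0.67 ± 0.15, adjusted p = 0.00414). The period change of Mylip differed between the sexes (difference in log2 fold -0.86 ± 0.21, adjusted p = 0.0277). By sex 7 were higher in males in each period, with 4 lower in the active and 3 in the inactive period (over all genes 30.1% and 30.5%, and 27.9% and 27.8%), and under equal totals 6 were higher and 4 lower in each. Cyp7b1, an oxysterol hydroxylase, was at 98.9 to 136 (median 114) in inactive females and 9807 to 10712 (median 10331) in inactive males (log2 fold 6.47 ± 0.11, adjusted p = 1.69e-25). Smpdl3a (log2 fold 1.01 ± 0.05, inactive period) and the lysophospholipid acyltransferase Lpcat3 (0.60 ± 0.05, active period) were higher in males as well, under equal totals too.

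Among 12 genes of cholesterol uptake, storage and lysosomal transfer, 1 rose and 3 fell in the active period in each sex (over all genes 7.97% and 6.98% in females, 8.43% and 6.95% in males; under equal totals 0 rose in females), with a median log2 fold of -0.07 in females and -0.03 in males. Lipa, the lysosomal acid lipase that frees cholesterol from its esters, fell in females (log2 fold -0.51 ± 0.06, adjusted p = 2.42e-07) and less in males (log2 fold -0.20 ± 0.06, adjusted p = 0.0185), and this difference passed (difference in log2 fold 0.31 ± 0.08, adjusted p = 0.0379). Soat1, which esterifies cholesterol for storage, rose in females (log2 fold 0.18 ± 0.06, adjusted p = 0.0286, and adjusted p = 0.0771 under equal totals) and fell in males (log2 fold -0.20 ± 0.06, adjusted p = 0.0150), with a difference that passed (difference in log2 fold -0.38 ± 0.08, adjusted p = 0.00998). Gramd1c, a sterol carrier, fell in males (log2 fold -0.36 ± 0.10, adjusted p = 0.0117). By sex 3 were higher and 6 lower in active males, and 2 higher and 7 lower in inactive males, but under equal totals 0 were higher, with 9 and 10 lower. Over all genes the shares were 30.1% and 30.5%, and 27.9% and 27.8%, as deposited, and 50.9% and 52.2% were lower under equal totals. The lipid-transfer gene Osbpl5 (log2 fold -0.53 ± 0.06) and the receptor gene Lrp1 (-0.94 ± 0.14) were lower in inactive males and Soat1 was higher (0.35 ± 0.06), a call that equal totals removed (log2 fold 0.07).

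The branch that carries isoprenoids to coenzyme Q, dolichol and protein anchors did not pass for the period in any of its 12 genes, in either sex, on the deposited scale by limma or by edgeR or DESeq2 (at an unadjusted p under 0.05 limma had 2 genes in females and 0 in males). The nearest were Fntb in females (log2 fold -0.26 ± 0.11, adjusted p = 0.110), a farnesyltransferase subunit, Rabggta in females (log2 fold -0.19 ± 0.09, adjusted p = 0.135), which under equal totals was called lower (log2 fold -0.23, adjusted p = 0.0295), and Coq2 in males (log2 fold 0.12 ± 0.06, adjusted p = 0.210). By sex 10 of 12 were higher in males in the active and 9 in the inactive period (30.1% and 27.9% of all genes), and 0 were lower in either (30.5% and 27.8%), also at an unadjusted p and by edgeR and DESeq2, but under equal totals 5 were higher and 2 lower in the active and 4 and 3 in the inactive period. The median log2 fold of the branch was 0.27 and 0.31 as deposited, beside -0.05 and -0.04 over all genes. Rabggta, a subunit of the enzyme that anchors Rab proteins, was at 1143 ± 136 in active females and 2654 ± 326 in active males (log2 fold 1.21 ± 0.09, adjusted p = 1.27e-12). Pdss1, which builds the tail of coenzyme Q (log2 fold 0.97 ± 0.09, adjusted p = 5.60e-11), and Dhdds, which builds dolichol (log2 fold 0.64 ± 0.07, adjusted p = 1.71e-09), were higher too, and these 3 kept the call under equal totals.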

How the data were processed

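The deposited table holds gene counts that the authors divided by 1 size factor per library, a signal in normalized counts, per the labels and the values. Per the submitters' processing notes, the build was GRCm39 and the tools were DESeq2 1.28.1, featureCounts, Subread 2.0.6 and Trim Galore 0.6.10, in no stated order. No source used here gives the annotation release or strand setting. All values were whole multiples of a step per library, within 0.05, which gave back whole reads. Symbols, exon lengths and overlaps came from GENCODE M21 and copies from blastn 2.17.0. Coordinates are from RefSeq on GRCm38.p6, not from the authors' build.

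Values were taken as log2 (normalized count + 1) for 17333 genes with a mean of at least 10. All 24 libraries were fitted with limma 3.58.1 in R 4.3.3 (trended, robust prior, 20 residual degrees of freedom). In each of 5 contrasts p-values were adjusted over all genes tested (Benjamini-Hochberg), with calls at an adjusted p under 0.05. Folds are on this log2 scale ± SE, with 95% t intervals, and levels are means ± SD, n = 6. The low counts of Fdps carry the most counting error. The method was tested on simulated data. Alternatives were pseudocounts, filters, scalings, subsets, weights, priors, edgeR 4.0.16 and DESeq2 1.42.0 on recovered reads, each library left out, and a block.

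Every gene of the module is named. Full values are given for those called for the period or its difference between sexes, and for the 6 with the smallest p by sex. Of each other list, up to 3 genes with the smallest p by period and 3 by sex are named. For the remaining genes folds are given. Genes named beside these belong to a count. The members and lists were chosen with earlier results of these data known. A few genes of the pathway are not reported here.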

Additional observations from a re-analysis of the deposited data

Results flagged for a closer look

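In 6 of 116 groups of 6 libraries (29 genes in 4 groups), the highest or lowest library stood far from the other 5, with a gap over 0.625 of the range, and chance alone gives about 1 in 20 groups. Srebf2 was lowest in female active library 1, at 2027 normalized counts against 2255 to 2359 in the others. In female inactive library 6 Hmgcs1 (17389), Mvd (760) and Hsd17b7 (1076) were highest, above 11858 to 13671, 569 to 624 and 822 to 914 in the others. Ggps1 was highest in male inactive library 5, at 1488, above 1339 to 1382. Cyp51 was lowest in male active library 1, at 9690, below 12948 to 13676.

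The period change differed between the sexes for Ebp (0.43 higher in males, on the log2 scale), Stard4 (0.41 higher in males) and Idi1 (-0.82, lower in males), by the interaction test of limma with adjusted p = 0.0224, 0.0149 and 0.0293.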

How the results depend on the processing

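With each library left out in turn, the genes called were 4 to 8 higher and 1 to 2 lower for the period in females, 8 to 13 and 0 to 1 in males, 2 to 6 and 0 to 1 for the difference between the sexes, 13 and 2 to 5 for sex in the active period, and 10 to 12 and 3 to 5 in the inactive period. Stard4 was joined by another lower gene in females without female active 5, female inactive 4 or 5, or male active 1 or 2, and 1 gene was lower in males without male active 1 or 4. By another setting, counts that moved over 1.5 times were as follows. For the period in females, 2 were lower under upper quartile or equal totals scaling, with only the groups compared, or with library weights, and 8 were higher with DESeq2. In males 2 were lower under upper quartile and 1 under equal totals scaling. For the difference between the sexes, 0 were lower with no filter, and 5 were higher under equal totals, 4 with DESeq2 and 1 (Stard4) with a plain prior. By sex, 5 and 7 were lower under upper quartile scaling in the active and inactive period, and under equal totals 8 were higher and 13 lower in the active and 6 higher and 15 lower in the inactive period.

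Under equal totals, 11 male over female folds that were called as deposited or under equal totals turned. In the active period these were Insig2 (-0.26), Hsd17b7 (-0.19), Pmvk (-0.22), Srebf2 (-0.27), Npc1 (-0.25) and Tm7sf2 (-0.24). In the inactive period they were Insig2 (-0.11), Nsdhl (-0.18), Cyp51 (-0.0017), Npc2 (-0.18) and Npc1 (-0.25). Folds that turned with no call under either scaling are not counted here. That scaling shifts all genes by -0.27 and -0.28; the cause of the other moves was not tested. The title number as a replicate block changed no count (5 and 1, 10 and 0, 2 and 1, 13 and 3, 11 and 4), with a consensus correlation of 0.0123; same-numbered libraries had correlations of -0.10 to 0.12, so they were not taken as pairs. Fdps had the lowest counts of these genes, and the part of depth and of its near-identical copies in them was not tested. No sample here links a change in RNA to enzyme amount or sterol content.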
